A study of Homo sapiens with 52 samples.

Results

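The mRNA levels of WNT genes in WI-38 cells, a line of human lung fibroblasts, were followed through 4 kinds of cellular senescence. The members are 10 genes chosen by symbol: the ligands WNT2, WNT5A, WNT5B and WNT16, the secreted inhibitors DKK1, DKK3 and SFRP1, the receptor FZD8, and AXIN2 and LEF1, which are neither ligands nor secreted inhibitors but genes read as the output of the pathway. All 10 were among the 15479 genes tested of 59408 listed, and they are 10 of the 98 genes of a WNT list that holds 88 other ligands, inhibitors, receptors and transducers. Cells labelled PMD-Sen had spent 24 h in 0.0090% SDS, a detergent that damages the plasma membrane. Cells labelled Ca2+-Sen had received medium with 75 mM KCl, and cells labelled DDR-Sen 250 nM DXR (doxorubicin), an agent that breaks DNA, also for 24 h. Treated cells were washed and collected on day 0 (the end of the treatment), daily up to day 4, and on days 6, 8 and 16. RS cells (replicative senescence) had been passaged until they stopped dividing, and the control was untreated young WI-38 cells.

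Each of the 26 groups had 2 libraries of bulk mRNA, so the measurements are levels per library and cannot tell fewer cells of a type from less RNA per cell. The same 2 untreated libraries were the control of all 25 comparisons, and no untreated group of a later day entered them, so time in culture and treatment cannot be told apart on the later days. All cells came from 1 line. Counted reads per library were 15.42 M and 18.78 M in untreated cells, 45.21 M and 57.97 M in RS, and between 19.13 M and 53.45 M in treated cells. A value for a single library below is a normalized count, the number of reads scaled to 1 common depth, and libraries are named by depth (deeper, then shallower), because the tables do not tell which numbered replicate is which. Fibroblast markers (8 genes, collagens COL1A1 and COL1A2 among them) summed to 25559.5 CPM (counts scaled to a fixed total per library) in untreated cells and to between 10909.6 and 26461 in the other groups. Of the markers of other cell types, KRT5 reached at most 1.31, CDH5 at most 1.86 and EPCAM at most 21.6 normalized counts, and the 4 leukocyte markers summed to at most 0.986 CPM. Both other sums were highest on day 0 of Ca2+-Sen: that of the 4 epithelial markers was 148 CPM against 60.1 in untreated cells, and that of the 3 endothelial markers 7.87 against 1.59. On that day KRT18 stood at 4107 normalized counts (1733 in untreated cells), PECAM1 at 136 (2.77) and CDH1 at 12.3 (0.295). These markers moved with the changes of the members on day 0 of Ca2+-Sen, and their part in them was not tested. Proliferation markers (MKI67, TOP2A and LMNB1) summed to 425 CPM in untreated cells and to between 6.30 and 270 in the other groups. They moved with every comparison with untreated cells given here, and their part in the results was not tested.

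WNT proteins are secreted, lipid-bearing signals that bind Frizzled receptors on the cell that made them or on its neighbours. In the canonical branch, binding together with an LRP co-receptor stabilises beta-catenin, which enters the nucleus with TCF and LEF factors and switches on targets such as AXIN2, itself a brake on the pathway. Other ligands, WNT5A above all, mostly act without beta-catenin, on cell movement and polarity. SFRP proteins bind WNTs outside the cell, and DKK1 blocks the LRP co-receptor. DKK3 is a relative of DKK1 whose action on the pathway is less clear. Fibroblasts of the lung are a source of WNT2 and WNT5A, and WNT16 has been described in senescent fibroblasts.

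Per kilobase of exon, the untreated cells held far more inhibitor than ligand mRNA. SFRP1 stood at 12413 and DKK3 at 7035 normalized counts per kilobase, followed by WNT5A at 1320, WNT5B at 1113, DKK1 at 1096 and WNT16 at 482. WNT2 (53.5), FZD8 (50.0), LEF1 (29.6) and AXIN2 (8.74) were far lower on the same scale. The 2 libraries of WNT5B overlapped those of DKK1 in this order, and those of WNT2 overlapped those of FZD8, while the other neighbours in the order did not overlap.

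Changes against untreated cells were common among the members. A comparison was called at an adjusted p under 0.05 over all 15479 genes tested. In PMD-Sen, 38 of 80 pairs of member and day were called (17 higher, 21 lower), and 17.7% of all pairs of gene and day were called in the same tables, 8.61% higher and 9.1% lower. In Ca2+-Sen, 39 of 80 were called (15 higher, 24 lower) beside 17.3% of all pairs, 7.98% higher and 9.37% lower. In DDR-Sen, 34 of 80 were called (16 higher, 18 lower) beside 19.9%, 8.79% higher and 11.1% lower. In RS, 4 of 10 members were called (3 higher, 1 lower) beside 22.3% of all genes, 11.2% higher and 11% lower. Most members are abundant, and abundant genes were called more often: where the mean was 1000 or more the share was 28.7% in PMD-Sen, 27.1% in Ca2+-Sen, 31.1% in DDR-Sen and 27.3% in RS. The 6 members in that range (WNT5A, WNT5B, WNT16, DKK1, DKK3 and SFRP1) were called in 28, 27 and 26 of 48 pairs in PMD-Sen, Ca2+-Sen and DDR-Sen, and in 3 of 6 in RS. The median log2 fold change of the members was -0.17 in PMD-Sen, -0.13 in Ca2+-Sen, -0.10 in DDR-Sen and 0.70 in RS, where the median over all genes tested was 0.02 in RS and closer to 0 in the others.

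**Figure D1:**
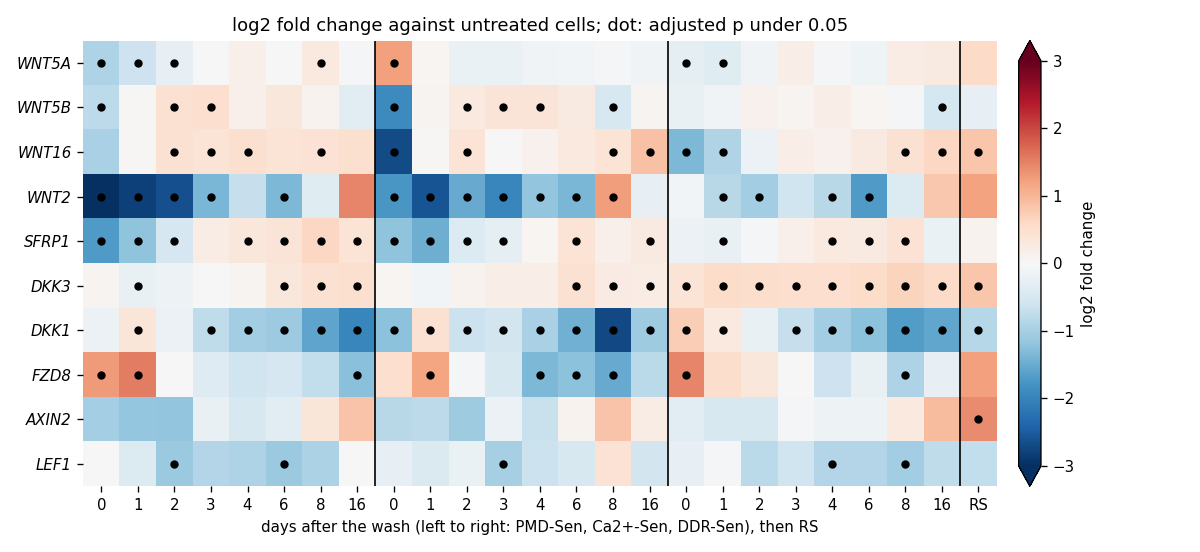
Log2 fold change against untreated cells (colour) of the 10 members (rows) in the 25 comparisons (columns: the 8 days of PMD-Sen, Ca2+-Sen and DDR-Sen, then RS), with a dot where the adjusted p was under 0.05. The colour scale ends at -3 and 3. WNT2 and SFRP1 are lowest in the first days of PMD-Sen and Ca2+-Sen, DKK1 is lower from day 3 on in all 3 inducers, and DKK3 is higher on all 8 days of DDR-Sen.

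WNT2, a canonical ligand of the embryonic lung, showed the widest range of the members. The gene lies on chromosome 7 (117275451 to 117323289, minus strand, GRCh38). Untreated cells gave 299 and 181 normalized counts of WNT2 in their 2 libraries. On day 0 of PMD-Sen the libraries gave 20.3 and 17.0, on day 1 35.6 and 33.8, and on day 2 30.5 and 47.5. All 6 libraries lay far below both untreated ones, and the deposited log2 fold change was -3.69 on day 0 (SE 0.45, adjusted p = 4.94e-15), or 12.9-fold lower. WNT2 was still lower on days 3 and 6 of PMD-Sen, by 2.57-fold and 2.54-fold. After KCl it was called lower than in untreated cells on each collected day from 0 to 6. It was lowest on day 1, at 47.6 and 32.3 (log2 fold change -2.58, SE 0.36, adjusted p = 8.67e-11). DXR lowered it less: day 0 gave 255 and 202, which overlapped the untreated libraries, and the lowest level came on day 6, at 70.3 and 77.7 (log2 fold change -1.71, SE 0.34, adjusted p = 1.03e-05).

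Later, WNT2 came back to or above its starting level, but often in 1 library of a pair only. Day 8 of Ca2+-Sen gave 589 and 558, both above untreated cells, with a log2 fold change of 1.25 (SE 0.23, adjusted p = 4.70e-07), and day 16 gave 203 and 201. On day 16 of PMD-Sen the deeper library held 248 and the shallower 1072, a 4.32-fold gap, and the log2 fold change of 1.46 (SE 1.00) was not called. RS showed the same kind of split, with 185 and 919 normalized counts (a 4.98-fold gap), and so did day 8 of PMD-Sen, with 296 and 77.7. Without the shallower RS library the log2 fold change of WNT2 went from 1.20 to -0.38. Among the 16 called comparisons of WNT2, 8 lost the call when 1 library was left out: days 3 and 6 of PMD-Sen, days 2, 4 and 6 of Ca2+-Sen and days 1, 2 and 4 of DDR-Sen. The deeper untreated library was one such library in each of these 8, and without it the log2 fold changes lay between -1.10 and -0.41.

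WNT5A, the main ligand of the branch without beta-catenin, moved in opposite directions on day 0 of 2 inducers. The gene lies on chromosome 3 (55465715 to 55490539, minus strand). Untreated libraries held 9355 and 10183 normalized counts. KCl raised WNT5A to 24224 and 21263 on day 0, a log2 fold change of 1.22 (SE 0.09, adjusted p = 1.70e-39), and the libraries of day 1 were back at 10601 and 9902. On day 0 of PMD-Sen the libraries held 4207 and 6065, a log2 fold change of -0.93 (SE 0.14, adjusted p = 7.65e-10), and on day 1 6481 and 6180.5. None of these 4 libraries reached the untreated level. By day 8 of PMD-Sen WNT5A stood at 11608 and 12514, slightly above untreated cells (log2 fold change 0.30, SE 0.11, adjusted p = 0.0486), a call that was lost without any 1 of the 4 libraries. DXR gave 7829 and 8418 on day 0 and 6972 and 8314 on day 1, log2 fold changes of -0.27 and -0.35 that were called but lost without the deeper treated library (-0.21 and -0.23). RS gave 11338 and 17895, both above untreated cells, and its log2 fold change of 0.58 was not called (SE 0.25, adjusted p = 0.0776). A gene on the opposite strand that overlaps WNT5A with no shared exon base, WNT5A-AS1, moved the same way: its log2 fold change was 1.09 on day 0 of Ca2+-Sen (SE 0.17, adjusted p = 4.64e-10) and -1.06 on day 0 of PMD-Sen (SE 0.26, adjusted p = 0.000179). The strand setting of the read counting is not given in the sources used here, so part of the WNT5A-AS1 reads may belong to WNT5A.

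WNT5B, a close relative of WNT5A, was opposite to it on day 0 of Ca2+-Sen. WNT5B lies on chromosome 12 (1529891 to 1647243, plus strand). Its untreated libraries held 5016 and 4564 normalized counts, and the KCl libraries of day 0 held 1167 and 1391, a log2 fold change of -1.91 (SE 0.11, adjusted p = 7.80e-62). SDS lowered it to 2465 and 3120 on day 0 (log2 fold change -0.78, SE 0.13, adjusted p = 1.36e-08). It then rose above untreated cells, to 6404 and 7158 on day 3 of PMD-Sen (log2 fold change 0.50, SE 0.10, adjusted p = 3.03e-05) and to 6205 and 6294 on day 3 of Ca2+-Sen (0.38, SE 0.09, adjusted p = 0.000305). The last called changes were small decreases, to 3499.9 and 3347 on day 8 of Ca2+-Sen (1.40-fold) and to 3621 and 3080.4 on day 16 of DDR-Sen (1.43-fold). Only day 2 of Ca2+-Sen, of the 9 called comparisons of WNT5B, lost its call when 1 library was left out.

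WNT16 fell on day 0 of Ca2+-Sen and DDR-Sen and ended above untreated cells in both, and it was also higher in RS. WNT16 lies on chromosome 7 (121325367 to 121341104, plus strand), and its untreated libraries held 1427 and 1717 normalized counts. Day 0 of Ca2+-Sen gave 165 and 327, a log2 fold change of -2.68 (SE 0.49, adjusted p = 2.04e-07), and day 0 of DDR-Sen gave 611 and 629 (-1.34, SE 0.15, adjusted p = 1.73e-18). Day 0 of PMD-Sen gave 559.5 and 1053, both below untreated cells, but with this spread the log2 fold change of -0.96 was not called (SE 0.46, adjusted p = 0.0839). On day 16 the KCl libraries reached 2861 and 2948 (log2 fold change 0.89, SE 0.11, adjusted p = 4.21e-13) and the DXR libraries 2511 and 2331 (0.62, SE 0.14, adjusted p = 8.89e-05). The SDS libraries held 2555 and 1815 on day 16, and their log2 fold change of 0.48 was not called (SE 0.20, adjusted p = 0.0835). RS gave 2502 and 3087, both above untreated cells, with a log2 fold change of 0.83 (SE 0.20, adjusted p = 0.000471), and this call held without any 1 library. Of 13 called comparisons, 7 lost the call with 1 library left out, all of them increases of at most 1.39-fold on days 2 to 8, and the deeper untreated library was one such library in each.

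**Figure D2:**
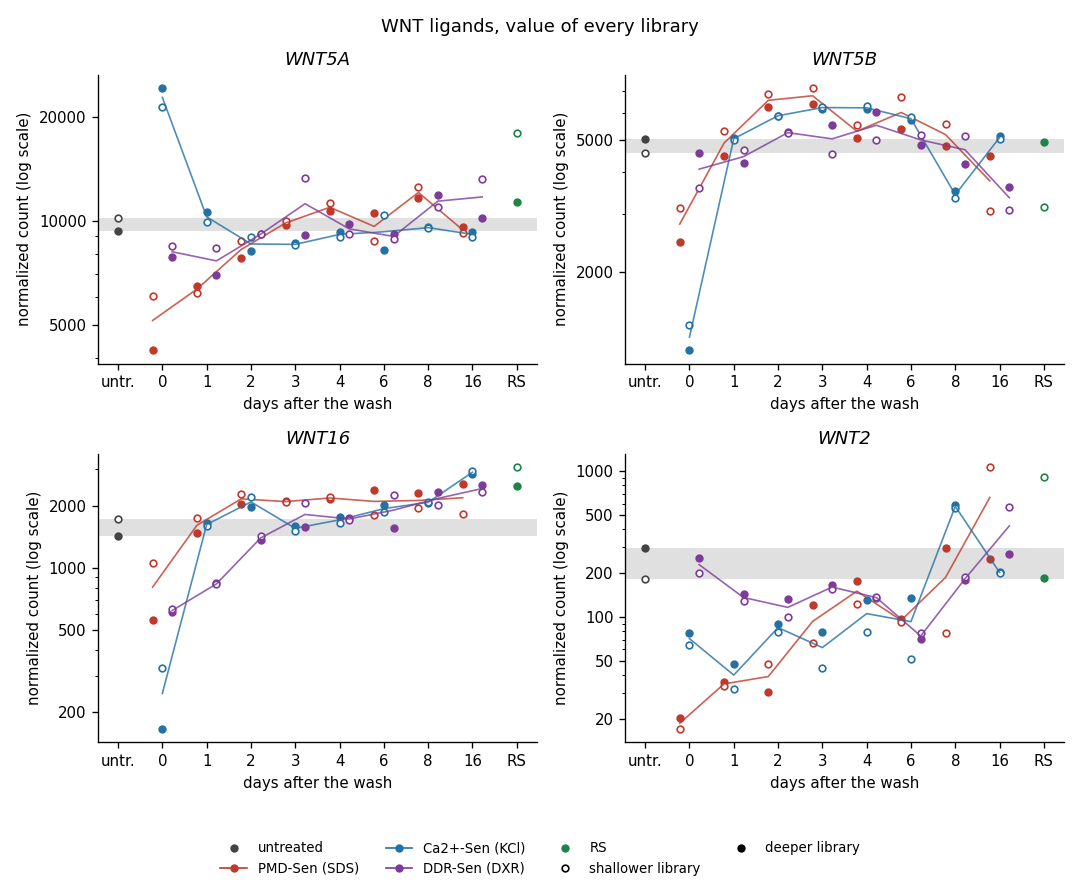
Normalized counts (log axis) of the 4 ligands by day, 1 panel a gene, for PMD-Sen, Ca2+-Sen, DDR-Sen and RS; filled dots are the deeper and open dots the shallower library of each pair, lines join the means, and the grey band spans the 2 untreated libraries. WNT5A rises to 24224 and 21263 on day 0 of Ca2+-Sen where WNT5B and WNT16 are at their lowest, and the WNT2 libraries of RS and of day 16 of PMD-Sen lie over 4-fold apart.

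DKK1, the inhibitor that binds the LRP co-receptor, was higher on day 1 and lower from day 3 on in all 3 inducers. Untreated libraries held 2311 and 2524 normalized counts. On day 0 DXR raised DKK1 to 4680.1 and 3393 (log2 fold change 0.74, SE 0.15, adjusted p = 1.72e-05), whereas KCl lowered it to 1050.5 and 999.8 (-1.24, SE 0.11, adjusted p = 2.71e-27). SDS libraries of day 0 held 2303 and 2007 and were not called. Day 1 was higher in each series, at 3125 and 3124 in PMD-Sen, 3219.8 and 3393 in Ca2+-Sen and 2848 and 3033 in DDR-Sen. Those of PMD-Sen and DDR-Sen lost the call without the deeper untreated library (log2 fold changes 0.31 and 0.22). From day 3 to day 16 all 15 comparisons were called lower, by 1.47-fold to 6.52-fold.

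The lowest DKK1 levels came late. Day 8 of Ca2+-Sen gave 396 and 345 normalized counts, a log2 fold change of -2.70 (SE 0.13, adjusted p = 9.11e-100). Day 16 of PMD-Sen gave 758 and 482 (log2 fold change -1.96, SE 0.22, adjusted p = 1.00e-16), and day 8 of DDR-Sen gave 721 and 804 (-1.66, SE 0.13, adjusted p = 2.94e-33). KCl cells were back up at 1100.2 and 1195 on day 16, still below both untreated libraries. RS libraries, with 1661 and 1028, were also lower (log2 fold change -0.85, SE 0.27, adjusted p = 0.00974), but the call was lost without the shallower RS library (-0.54). In none of the 25 comparisons did the DKK1 libraries overlap the untreated ones, and 22 were called, the most of any member. Lack of overlap was common: it held in 192 of the 250 comparisons of all members. All comparisons of a gene share the same 2 untreated libraries. Single libraries were recovered for the members only, so there is no such share over all genes.

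FZD8, one of the Frizzled receptors, was higher on day 0 or 1 of each inducer and lower on some later days. Untreated libraries held 214 and 189 normalized counts. Day 0 gave 467 and 509 in PMD-Sen and 572 and 545 in DDR-Sen, log2 fold changes of 1.27 (SE 0.23, adjusted p = 4.22e-07) and 1.47 (SE 0.20, adjusted p = 8.16e-12). Day 1 gave 453 and 713 in PMD-Sen and 452 and 461 in Ca2+-Sen, again with no overlap with untreated cells. Day 0 of Ca2+-Sen gave 286 and 283, above both untreated libraries, and was not called (log2 fold change 0.49, SE 0.23). The low points were 74.0 and 94.2 on day 16 of PMD-Sen (log2 fold change -1.26, SE 0.34, adjusted p = 0.00181) and 61.0 and 81.1 on day 8 of Ca2+-Sen (-1.51, SE 0.32, adjusted p = 1.40e-05). Day 16 of Ca2+-Sen, at 98.6 and 130, was not called (-0.82, SE 0.31, adjusted p = 0.0630). In DDR-Sen only day 8 was called lower, at 104 and 109 (-0.92, SE 0.31, adjusted p = 0.0185). Day 16 of DDR-Sen, at 141 and 203, overlapped untreated cells and was not called (-0.24, SE 0.31). Of its comparisons 9 were called, and 2 of these were lost with 1 library left out, day 6 of Ca2+-Sen and day 8 of DDR-Sen. RS libraries held 207 and 733, the first within the untreated range, and the log2 fold change of 1.22 was not called (SE 0.53). It was 1.86 without the deeper and 0.04 without the shallower RS library.

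DKK1 and FZD8 are both on chromosome 10, at 52314296 to 52318042 on the plus strand and 35638249 to 35642278 on the minus strand of GRCh38. Of all pairs among the 9 members with a mean level of at least 100, their levels were the most alike (Pearson's r = 0.80 over the 25 groups, which share the untreated scale; a description). They did not move together everywhere: on day 0 of Ca2+-Sen the log2 fold change was -1.24 for DKK1 and 0.49 for FZD8, on day 0 of PMD-Sen -0.16 and 1.27, and in RS -0.85 and 1.22. Their promoters are printed for this likeness of level: the 250 bases before each RefSeq start site (GRCh38.p14), 5′ to 3′ on the strand of the gene. Capitals mark TATAAA, the letters of a TATA box, and in DKK1 also CTTTGAA, one spelling of the site that TCF and LEF factors bind.
DKK1, chr10:52314031-52314280, plus strand: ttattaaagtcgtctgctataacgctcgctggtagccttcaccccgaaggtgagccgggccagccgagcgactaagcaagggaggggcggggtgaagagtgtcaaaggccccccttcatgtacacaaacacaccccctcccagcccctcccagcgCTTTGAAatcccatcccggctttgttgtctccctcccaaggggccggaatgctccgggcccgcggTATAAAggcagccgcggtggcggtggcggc
FZD8, chr10:35642297-35642546, minus strand: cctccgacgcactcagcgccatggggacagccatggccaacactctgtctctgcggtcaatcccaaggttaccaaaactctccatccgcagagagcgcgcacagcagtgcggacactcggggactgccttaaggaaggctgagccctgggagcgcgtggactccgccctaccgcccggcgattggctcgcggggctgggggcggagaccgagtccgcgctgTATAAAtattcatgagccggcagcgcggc
TATAAA begins 30 bases before the start site in DKK1 and 29 before it in FZD8. Among 35116 promoters of the same length, 2.18% had TATAAA on the strand of the gene beginning 35 to 24 bases before the start. CTTTGAA begins at -95 in DKK1, and CTTTGAA or CTTTGAT, on either strand and anywhere in the 250 bases, was found in 5.94% of all promoters. Promoters of 7 members were matched (9 entries), and neither motif was found in the other entries, those of WNT2, WNT5A, WNT5B, WNT16 and LEF1. A match is a description of these letters and not a site shown to be bound.

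SFRP1, the most abundant member and a protein that captures WNTs outside the cell, fell early in PMD-Sen and Ca2+-Sen and overshot later. SFRP1 lies on chromosome 8 (41261958 to 41309497, minus strand). Untreated libraries held 62463 and 55729 normalized counts. SDS libraries of day 0 held 16490.0 and 20015, a log2 fold change of -1.70 (SE 0.11, adjusted p = 2.02e-51), and those of day 1 held 25731 and 25665 (-1.20, SE 0.08, adjusted p = 1.49e-46). KCl gave 23076 and 28032 on day 0 and 21851 and 20662 on day 1, the latter a log2 fold change of -1.48 (SE 0.08, adjusted p = 3.10e-77). After DXR the day 0 libraries held 52042 and 53078 and were not called. SFRP1 had crossed the untreated level by day 8 of PMD-Sen, at 92475 and 90062 (log2 fold change 0.63, SE 0.11, adjusted p = 1.49e-07), and by day 8 of DDR-Sen, at 75614 and 85232 (0.44, SE 0.10, adjusted p = 0.000161). The increase on day 4 of PMD-Sen (76590.1 and 74129.5, 1.28-fold) held without any 1 library. Further increases were called on days 6 and 16 of PMD-Sen and Ca2+-Sen and on days 4 and 6 of DDR-Sen. Each of these 6 lost its call without the shallower untreated library (log2 fold changes 0.19 to 0.32). RS, at 64805 and 62668, was not called (log2 fold change 0.11, SE 0.15).

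DKK3 was higher on every day of DDR-Sen. DKK3 lies on chromosome 11 (11963106 to 12009769, minus strand). Its untreated libraries held 36095 and 35084 normalized counts, and the 16 DXR libraries held between 44887 and 57794, all above both. Its log2 fold changes in DDR-Sen ran from 0.41 on day 0 (SE 0.10, adjusted p = 0.000310) to 0.66 on day 8 (SE 0.09, adjusted p = 8.63e-12), and these 8 calls held without any 1 library. SDS first lowered it slightly, to 31011 and 29884 on day 1 (log2 fold change -0.23, SE 0.07, adjusted p = 0.0169, lost without the shallower treated or the deeper untreated library), and later raised it to 47202 and 49743 on day 8 and 51586 and 48186 on day 16. On days 0 to 4 of Ca2+-Sen DKK3 was not called, and on days 6, 8 and 16 it was 1.36-fold, 1.18-fold and 1.16-fold higher, the last of which lost the call with 1 library left out. RS held the most DKK3 of the 26 groups, 65167 and 61067, a log2 fold change of 0.83 (SE 0.14, adjusted p = 2.89e-08) that held without any 1 library.

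**Figure D3:**
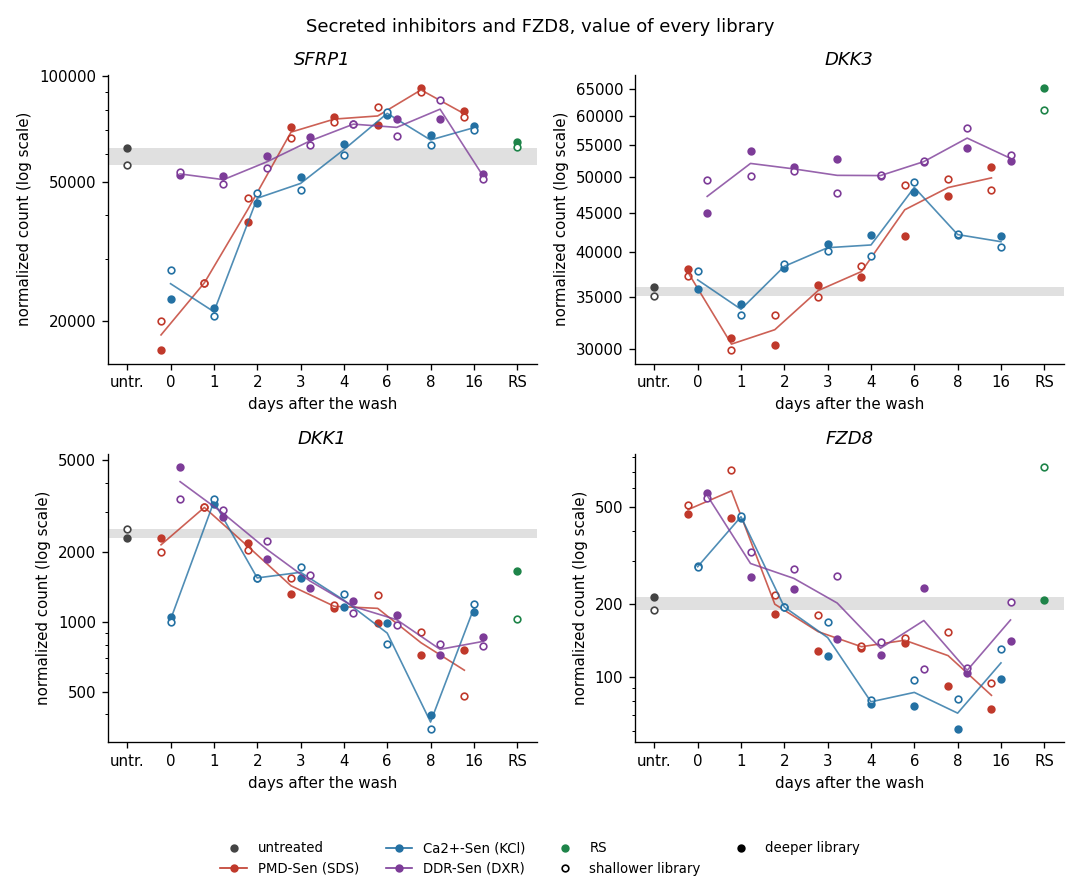
Normalized counts (log axis) of SFRP1, DKK3, DKK1 and FZD8 by day, drawn as for the ligands (filled dots the deeper library, open dots the shallower, lines the mean, grey band the untreated pair). DKK1 ends below the untreated band in all series, all DKK3 libraries of DDR-Sen lie above it, and SFRP1 starts far below it in PMD-Sen and Ca2+-Sen only. Within each inducer FZD8 is highest on days 0 and 1, and its RS libraries lie 3.54-fold apart.

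AXIN2 and LEF1, both low, gave few calls. AXIN2 (chromosome 17, 65528563 to 65561647, minus strand) is a target that beta-catenin switches on in most cells, and its untreated libraries held 49.6 and 41.6 normalized counts, from 32 and 22 reads. RS libraries held 99.0 and 146, both above untreated cells, with a log2 fold change of 1.42 (SE 0.44, adjusted p = 0.00920). This was its only call of 25, and it was lost without the shallower RS library (1.11) or without the shallower untreated library (1.30). In the first days AXIN2 levels were low, for example 22.7 and 22.2 on day 0 of PMD-Sen, and on day 16 of DDR-Sen they were 92.7 and 83.7, but neither was called (log2 fold changes -1.02, SE 0.68, and 0.95, SE 0.47). With a median SE of 0.56 on the log2 scale, smaller changes of AXIN2 were not detectable at this depth. In the annotation 25.18% of the AXIN2 exon bases also belong to AC004805.1 on the same strand, so part of its reads may be shared.

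LEF1 (chromosome 4, 108047545 to 108168956, minus strand), the nuclear partner of beta-catenin, held 186 and 130.4 normalized counts in untreated cells. It was called lower in 5 comparisons: days 2 and 6 of PMD-Sen (88.2 and 58.3; 81.3 and 64.8), day 3 of Ca2+-Sen (81.8 and 76.1) and days 4 and 8 of DDR-Sen (74.2 and 98.1; 68.6 and 86.7). Their log2 fold changes lay between -1.12 and -0.88, and each call was lost without the deeper untreated library. Day 8 of Ca2+-Sen went the other way, to 236 and 196, above both untreated libraries, and was not called (log2 fold change 0.44, SE 0.28). LEF1-AS1, which shares 279 exon bases with LEF1 on the opposite strand, had a level of at most 6.93 in any group.

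**Figure D4:**
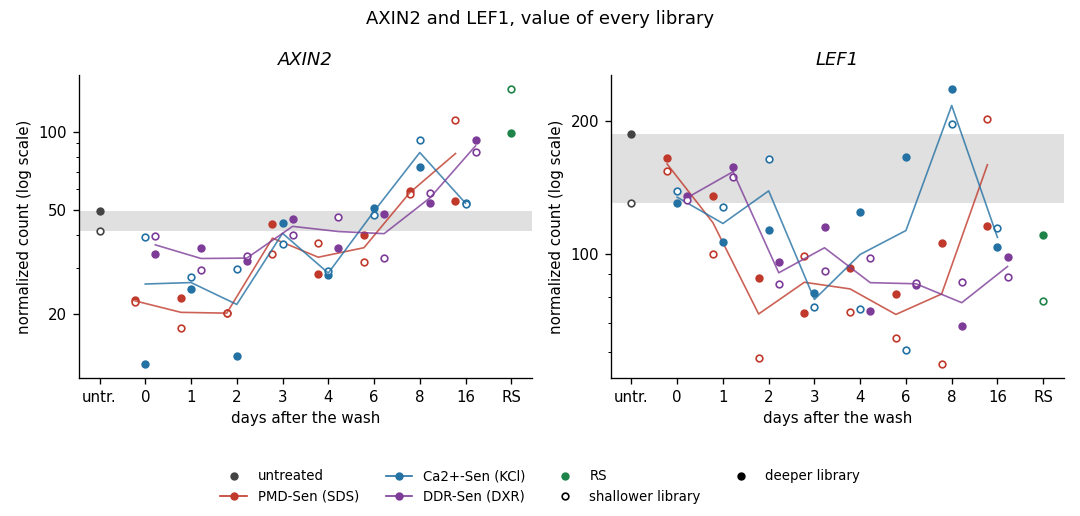
Normalized counts (log axis) of AXIN2 and LEF1 by day, drawn as for the ligands. For both genes the libraries of most pairs lie within 2-fold of each other.

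Direct tests of the difference between inducers, each the difference of 2 log2 fold changes that share the untreated libraries, called more members on day 0 than on any other day. Over all 8 days, 17 of 80 pairs of member and day differed between PMD-Sen and DDR-Sen, where 6.26% of all pairs of gene and day did. Between PMD-Sen and Ca2+-Sen 13 of 80 differed (6.16% of all pairs), and between Ca2+-Sen and DDR-Sen 22 of 80 (7.47%). On day 0 alone, 6 of 10 members differed between PMD-Sen and DDR-Sen (27.4% of all genes), 7 of 10 between PMD-Sen and Ca2+-Sen (36.9%) and 8 of 10 between Ca2+-Sen and DDR-Sen (35.5%). The shares beside these differences, and beside those between days below, are over tested genes of all levels. No share for abundant genes is given for them, although most members are abundant. With 1 library left out, 9 of the 17, 7 of the 13 and 10 of the 22 lost the call in at least 1 case, and none changed sign.

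On day 0, WNT5A was 4.43-fold lower in PMD-Sen than in Ca2+-Sen (log2 difference -2.15, SE 0.17, adjusted p = 7.44e-35) and 2.80-fold higher in Ca2+-Sen than in DDR-Sen (1.49, SE 0.14, adjusted p = 5.42e-25). WNT2 was 12.2-fold lower in PMD-Sen than in DDR-Sen (-3.61, SE 0.53, adjusted p = 2.78e-10) and 3.82-fold lower than in Ca2+-Sen (-1.93, SE 0.56, adjusted p = 0.00218). WNT5B was lower in Ca2+-Sen than in PMD-Sen by 2.19-fold and than in DDR-Sen by 3.20-fold. These differences kept their call without any 1 library. WNT16 was also lower in Ca2+-Sen than in either other inducer on day 0, by 3.28-fold and 2.53-fold, but its KCl libraries lie 1.98-fold apart and both calls were lost with 1 library left out.

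The secreted inhibitors were called different between DDR-Sen and both other inducers on day 0, although for DKK3 not without each single library. On day 0 SFRP1 was 2.88-fold lower in PMD-Sen than in DDR-Sen (log2 difference -1.53, SE 0.15, adjusted p = 1.36e-22) and 2.06-fold lower in Ca2+-Sen than in DDR-Sen (-1.04, SE 0.14, adjusted p = 1.03e-11). DKK1 was 3.93-fold lower in Ca2+-Sen than in DDR-Sen (-1.98, SE 0.19, adjusted p = 2.21e-23) and 1.87-fold lower in PMD-Sen than in DDR-Sen (-0.91, SE 0.20, adjusted p = 5.28e-05). DKK3 was lower in PMD-Sen than in DDR-Sen on days 0 to 4, most on day 1 (-0.77, SE 0.11, adjusted p = 9.37e-11), and the calls of days 1 and 2, but not of days 0, 3 and 4, held without any 1 library. It was lower in Ca2+-Sen than in DDR-Sen on days 0, 1, 2, 8 and 16, of which only days 1 and 2 kept the call without any 1 library. Between PMD-Sen and Ca2+-Sen no day of DKK3 was called, and the 95% intervals of the log2 difference lay between -0.47 and 0.55. For AXIN2 no difference between inducers was called, and on day 0 the 95% interval between PMD-Sen and DDR-Sen ran from -2.37 to 0.95, so a large difference could have been missed.

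Day 16 was then set against day 0 of the same inducer. Of the 10 members, 7 differed in PMD-Sen (27% of all genes did), 6 in Ca2+-Sen (32.9%) and 4 in DDR-Sen (12.1%). WNT16 was higher on day 16 than on day 0 in all 3 series, by log2 differences of 1.44 in PMD-Sen (SE 0.50, adjusted p = 0.0185), 3.57 in Ca2+-Sen (SE 0.50, adjusted p = 2.49e-11) and 1.97 in DDR-Sen (SE 0.20, adjusted p = 1.45e-19). FZD8 was lower on day 16 in all 3, by -2.54, -1.31 and -1.70. Of these 6, only the WNT16 difference of PMD-Sen lost its call with 1 library left out. SFRP1 was 4.27-fold higher on day 16 of PMD-Sen (log2 difference 2.10, SE 0.17, adjusted p = 1.91e-32) and 2.79-fold higher on day 16 of Ca2+-Sen (1.48, SE 0.13, adjusted p = 1.38e-29). DKK1 was lower on day 16 in PMD-Sen (-1.80, SE 0.25, adjusted p = 4.87e-11) and in DDR-Sen (-2.29, SE 0.21, adjusted p = 2.87e-25). WNT5B of Ca2+-Sen was 3.98-fold higher on day 16 than on day 0, while WNT5A of Ca2+-Sen was 2.49-fold lower. WNT2 in PMD-Sen was higher on day 16 by 5.15 (SE 1.10, adjusted p = 3.02e-05), and by between 3.73 and 5.85 with 1 library left out.

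**Figure D5:**
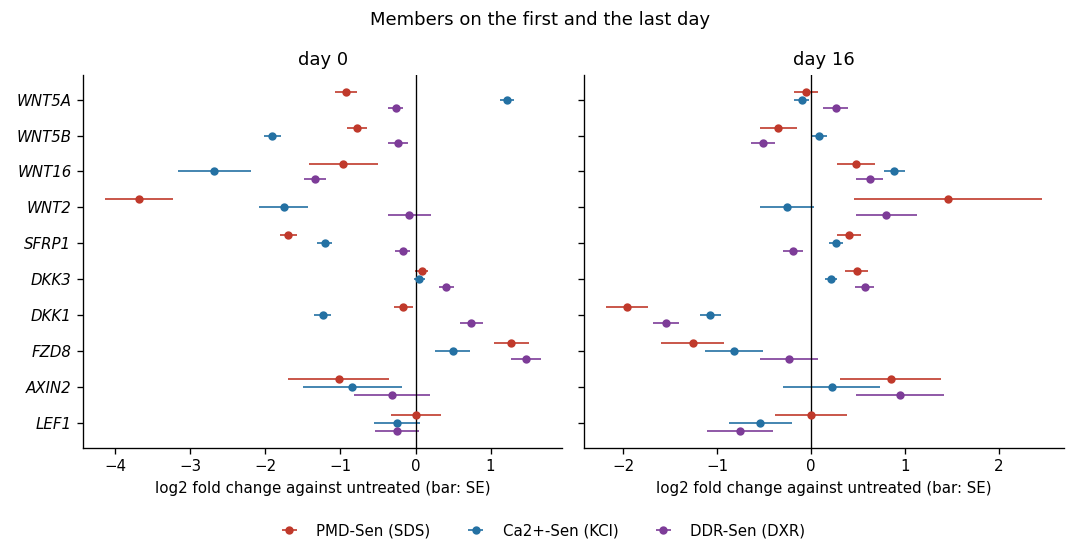
Log2 fold change against untreated cells on day 0 and on day 16 for each member and inducer, with bars of 1 SE on each side. The values on day 0 run from -3.69 (WNT2 in PMD-Sen) to 1.47 (FZD8 in DDR-Sen), and WNT16 is below 0 on day 0 and above it on day 16 in all 3 inducers.

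In RS, DKK3 and WNT16 were higher and their calls held without any 1 library, while those of AXIN2 (higher) and DKK1 (lower) did not hold. The 2 RS libraries lay over 3-fold apart for WNT2 and FZD8, and the shallower one held more WNT2, WNT5A, WNT16, FZD8 and AXIN2 and less WNT5B, DKK1 and LEF1 than the deeper one. WNT5A and FZD8 were called higher in RS when the deeper RS library was left out (log2 fold changes 0.87 and 1.86) and not when the shallower was (0.21 and 0.04). Over all 25 comparisons, 42 of the 115 called ones lost the call without 1 library, 29 of them without the deeper untreated one, and none changed sign.

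Of the 88 other WNT genes, 55 had a mean level of at least 10 and were tested. In PMD-Sen 108 of 440 pairs of gene and day were called (53 higher, 55 lower), in Ca2+-Sen 97 (51 and 46), in DDR-Sen 93 (48 and 45), and in RS 15 of 55 (12 and 3). The shares of all genes called in the same comparisons were 17.7%, 17.3%, 19.9% and 22.3%. Most of the 55 had a mean of at least 100. Genes with a mean from 100 to 1000 were called in 18.3%, 18%, 20.8% and 25.4%. Where the mean was 1000 or more, the shares were 28.7%, 27.1%, 31.1% and 27.3%. No excess of the other WNT genes is read from their counts. Most other ligands were hardly detected: of 15, only WNT2B, WNT9A and WNT10B were tested, while WNT1 and WNT3A averaged under 1 normalized count. WNT9A was the ligand outside the members that moved most, at a level of 350 on day 0 of DDR-Sen against 81.0 in untreated cells (log2 fold change 2.11, SE 0.27, adjusted p = 3.72e-13) and also higher on day 0 of Ca2+-Sen (1.56, SE 0.30, adjusted p = 1.02e-06). DKK2, a further inhibitor of the DKK family, was called higher in 16 comparisons and lower in none, for example in RS (1.58, SE 0.35, adjusted p = 7.23e-05) and on day 16 of PMD-Sen (1.09, SE 0.35, adjusted p = 0.0128).

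Among the 14 receptors and co-receptors tested, 25 of 112 pairs of gene and day were called lower in PMD-Sen and 6 higher, where 9.1% of all pairs were lower and 8.61% higher. The numbers were 17 lower and 8 higher in Ca2+-Sen (9.37% and 7.98% of all pairs) and 12 and 5 in DDR-Sen (11.1% and 8.79%), the lower calls of DDR-Sen being near the general rate. In RS 3 of 14 were called, all higher, beside 22.3% of all genes (11.2% higher and 11% lower), so the number called was near the general rate. FZD1, a Frizzled receptor, supplied many of the lower calls: it was lower in 15 comparisons and higher in 1, with a log2 fold change of -1.69 on day 0 of Ca2+-Sen (SE 0.12, adjusted p = 5.45e-42). KREMEN1, which binds DKK1 and removes the LRP co-receptor, was higher in 2 comparisons and lower in 1, day 0 of PMD-Sen (-1.76, SE 0.24, adjusted p = 3.59e-12). ROR2, a receptor for WNT5A, was higher in 4 comparisons, such as day 16 of PMD-Sen (1.31, SE 0.29, adjusted p = 7.65e-05), and lower in 4. ROR1 was higher in 2, such as day 16 of Ca2+-Sen (0.62, SE 0.13, adjusted p = 3.23e-05), and lower in 7.

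The 6 other targets and feedback genes tested went both ways. In PMD-Sen 22 of 48 pairs of gene and day were called (11 higher, 11 lower), beside 17.7% of all pairs. In Ca2+-Sen 21 of 48 were called (9 higher, 12 lower), beside 17.3%, and in DDR-Sen 31 of 48 (11 higher, 20 lower), beside 19.9%. In RS 4 of 6 were called (2 higher, 2 lower), beside 22.3% of all genes. APCDD1 was lower in 15 comparisons and higher in none, and TNFRSF19 lower in 10 and higher in 1. MYC was lower in 9 and higher in 1. CCND1 (cyclin D1) was higher in 21 comparisons and lower in 2, for instance on day 16 of Ca2+-Sen (log2 fold change 0.60, SE 0.06, adjusted p = 1.17e-18). BAMBI was higher in 9 and lower in none, with 1.58 on day 0 of Ca2+-Sen (SE 0.13, adjusted p = 1.49e-30), 1.21 on day 16 of DDR-Sen and 1.37 in RS. TCF7, a transcription factor of the LEF1 family, was lower in 9 and higher in 1, with -2.33 on day 16 of DDR-Sen (SE 0.37, adjusted p = 4.30e-09). In the arm without beta-catenin, CELSR3 was higher in 10 comparisons and lower in 1 (day 0 of Ca2+-Sen, -1.01). The higher ones included day 0 of PMD-Sen (1.98, SE 0.25, adjusted p = 1.81e-14), day 16 of PMD-Sen (1.68) and of DDR-Sen (1.88) and RS (1.64). DAAM2 was higher in 7 comparisons, RS among them (1.03), and lower in 4, including day 0 of PMD-Sen (-1.72, SE 0.26, adjusted p = 7.97e-10) and of DDR-Sen (-0.85). CELSR2 was higher in 1 and lower in 6, such as day 16 of Ca2+-Sen (-0.61, SE 0.20). Outside this arm, TCF7L1, a further transcription factor of the LEF1 family, was higher in 2 comparisons and lower in 3, such as day 0 of DDR-Sen (-0.80, SE 0.18).

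The genes whose levels followed a member most closely were sought, among 10950 genes whose mean reached 100, by Pearson's r of the log2 level over the 25 treated and RS groups. These are descriptions, since groups of 1 inducer and a common scale tie the points together. WNT2 was closest to ROR2 (r = 0.94) and PODN (0.92), WNT5A to WNT5A-AS1 (0.94) and MKNK1 (0.88), WNT5B to IDH3G (0.94) and PPP1R7 (0.94), and WNT16 to PDE6D (0.91) and GMDS (0.91). DKK1 was closest to APCDD1L (0.92) and GAL (0.89), DKK3 to TMEM59 (0.95) and IGFBP7 (0.95), SFRP1 to TIMP2 (0.95) and PGM5P4 (0.94), and FZD8 to SERPINE2 (0.91) and AMIGO2 (0.90). LEF1 had only 1 gene above 0.8, POSTN at 0.82, followed by COL6A3 at 0.79. Among the members themselves, SFRP1 and FZD8 ran most against each other (r = -0.71), and WNT5B went with WNT16 (0.69) and WNT2 with DKK3 (0.66) and SFRP1 (0.65).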

How the data were processed

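WI-38 mRNA was sequenced in 2 independent samples per group, and p-values measure the spread between these samples. The submitters' processing notes name Trim Galore, HISAT2, HTSeq, featureCounts, DESeq2 and GRCh38/hg38 without roles or versions; strand setting and gene annotation were not given in the sources used here. For each of 25 comparisons with untreated cells the authors deposited a table holding, per gene, a mean of normalized counts (a signal), a log2 fold change with its SE on the log2 scale, their ratio (a score), and p-values before and after adjustment. The form is that of DESeq2 results, which the authors appear to have used. These columns are the authors' own comparisons and were used because the members are followed through these tables; fold changes, SEs and unadjusted p-values are theirs. Files of both libraries of a condition held the same table, and the number of other columns with values per sample was 0. The row that names no gene held at most 0.00223% of the signal and was left out.

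From these tables, size factors were recovered with the help of genes whose reads were a single one in a single library. The whole read counts of both libraries were then found for each member as the counts that give the deposited mean, fold change and SE (largest deviation in log2 fold change 4.46e-06). The solution was unique in all 25 tables for 8 members, in 21 for DKK3 and in 18 for SFRP1, where alternatives differed by at most 0.785% and 1.02%. Of simulated pairs, 70 of 70 treated and 8 of 8 untreated were recovered. Levels were set on the untreated size factors of the RS table, to which the untreated levels of the other tables fitted with a median log2 SD of 0.000548. Genes with a mean of at least 10 over the 26 groups were tested (15479), the deposited p-values were adjusted anew by Benjamini-Hochberg within each table, and calls were made at 0.05. A pair of comparisons was tested by their difference over the root of the summed squared SEs (normal distribution, both tails). On simulated data for day 0 of PMD-Sen against day 0 of DDR-Sen (12964 genes, 200 changed), this test recovered 9% of log2 changes of 0.5, 58.5% of 1 and 83% of 2. The simulated fold changes were drawn independently, without shared untreated libraries, and few genes changed, whereas 27.4% of all genes were called in the real comparison. These shares are therefore not the power of the test in these data. An exact permutation test of 2 against 2 libraries cannot go below p = 0.333 and was not used.

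The named genes are all 10 members; of the other WNT genes, for day 0 and day 16 of each inducer and RS, the 3 largest called changes with a mean of at least 100, with their counts over all comparisons; and the 2 genes most alike each member (log2 of level + 1). WNT1, WNT2B, WNT3A, WNT10B, APCDD1, TNFRSF19, MYC, LEF1-AS1 and overlapping genes were named after their values were seen. Members and lists were chosen with earlier results of these data known. Alternatives were another scaling, filter, adjustment, fold minimum and error, and leaving out 1 library with the dispersion of the table, which assumes that a lone library varies like the others; this last one was chosen after seeing the data. Scripts ran in Python 3.11.15 with SciPy 1.17.1, matplotlib 3.10.9, pandas 2.3.3 and NumPy 2.4.6. Positions are from GENCODE v29 (GRCh38) and promoters from RefSeq.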

Additional observations from a re-analysis of the deposited data

Results flagged for a closer look

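Results are listed here because the effect of 1 inducer or day differed from that of another by a direct test. Between PMD-Sen and DDR-Sen 17 pairs of member and day differed, between PMD-Sen and Ca2+-Sen 13, and between Ca2+-Sen and DDR-Sen 22. Between day 16 and day 0, 7 members differed in PMD-Sen, 6 in Ca2+-Sen and 4 in DDR-Sen.

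In 10 of these pairs the member was called higher in one group and lower in the other, each against untreated cells. Between inducers they were DKK3 on day 1 (PMD-Sen minus DDR-Sen, log2 difference -0.77), WNT5A on day 0 (PMD-Sen minus Ca2+-Sen, -2.15, and Ca2+-Sen minus DDR-Sen, 1.49) and DKK1 on day 0 (Ca2+-Sen minus DDR-Sen, -1.98). Between days (day 16 minus day 0) they were SFRP1 (2.10) and FZD8 (-2.54) in PMD-Sen, WNT16 (3.57) and SFRP1 (1.48) in Ca2+-Sen, and WNT16 (1.97) and DKK1 (-2.29) in DDR-Sen. All 10 differences kept their call without any 1 library, although in 4 of them the call of 1 side against untreated cells did not: DKK3 on day 1 of PMD-Sen, WNT5A on day 0 of DDR-Sen and SFRP1 on day 16 of PMD-Sen and of Ca2+-Sen.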

How the results depend on the processing

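No paired analysis was possible because the tables hold no value tied to a numbered replicate and the recovered libraries are known only by depth. With a log2 fold change of at least 1 also asked, called pairs of the members went from 38 to 16 in PMD-Sen, 39 to 21 in Ca2+-Sen, 34 to 9 in DDR-Sen and 4 to 1 in RS, and those of the other WNT genes from 108 to 41, 97 to 21, 93 to 20 and 15 to 8. Differences of at least 1 numbered 4 between PMD-Sen and DDR-Sen, 6 between PMD-Sen and Ca2+-Sen and 11 between Ca2+-Sen and DDR-Sen. Shares of all genes with this minimum are not given, so these counts do not show whether the WNT genes stand out under it. The error used for differences counts the shared untreated libraries in both comparisons; with that share removed, 21 pairs differed between PMD-Sen and Ca2+-Sen and 36 between Ca2+-Sen and DDR-Sen. Without 1 library, member calls ranged from 27 to 35 in PMD-Sen, 32 to 35 in Ca2+-Sen, 26 to 31 in DDR-Sen and 2 to 6 in RS, where leaving out the shallower RS or the shallower untreated library gave 2. Differences then ranged from 9 to 16 between PMD-Sen and DDR-Sen (9 without the shallower untreated, 11 without the deeper untreated or the deeper PMD-Sen library), 7 to 11 between PMD-Sen and Ca2+-Sen (7 without the deeper untreated library, 8 without the shallower untreated, PMD-Sen or Ca2+-Sen library) and 15 to 20 between Ca2+-Sen and DDR-Sen. Between days they ranged from 5 to 8 in PMD-Sen and 3 to 4 in DDR-Sen and stayed at 6 in Ca2+-Sen. The other counts, under another filter, scaling or adjustment, stayed within 1.5 times. Scaling by totals kept 243 of 250 member calls on their side of the threshold (4 gained, 3 lost); of 1000 fits without 1 library, 893 kept theirs, 18 gained and 89 lost one. The direction of a called change was the same in all of these. Low read numbers limit AXIN2, LEF1, FZD8 and WNT2 (median SE 0.56, 0.35, 0.31 and 0.34).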

Other observations

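NOTUM, an enzyme that removes the lipid from WNT proteins, fell below the mean level asked for a test, but its level was 151 normalized counts on day 0 of Ca2+-Sen against 3.91 in untreated cells. LRP6, a co-receptor that most cells use, is listed at no more than 1.52 in any group; how reads of overlapping genes were counted is not given in the sources used here, so this value may not be its expression. APCDD1, an inhibitor at the cell surface, was called lower in 15 of 25 comparisons and higher in none. Their values were known when these genes were chosen.

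The libraries of day 16 of PMD-Sen differed from each other, as those of RS did, but not in the same way for all members. In both groups the shallower library held more WNT2, FZD8 and AXIN2 and less WNT5B and DKK1 (on day 16 of PMD-Sen, WNT2 1072 against 248 and DKK1 482 against 758). WNT5A, WNT16 and LEF1 went opposite ways: the shallower library held less WNT16 on day 16 of PMD-Sen (1815 against 2555) and more in RS (3087 against 2502). On day 8 of PMD-Sen the WNT2 gap went the other way, with 296 in the deeper library and 77.7 in the shallower. The source of these gaps was not tested.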
